A study of Mus musculus with 4 samples.

Results

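Solute carriers are membrane proteins that move ions, transmitters, amino acids, sugars and metals across the cell surface or into vesicles and mitochondria, and their genes carry the prefix Slc followed by a family number. The members described here are all genes whose name starts with Slc and a digit and that had a peak of N6-methyladenosine (m6A) in the mouse spinal cord, except *Slc1a2*, *Slc1a3*, *Slc6a5* and *Slc12a5*. They were 230 of the 13554 genes with a peak in either of the 2 peak lists used here. By name, 6 of the matching genes do not encode transporters: *Slc9a3r1* and *Slc9a3r2* encode scaffold proteins, and *Slc4a1ap*, *Slc7a6os*, *Slc2a4rg-ps* and *Slc36a1os* are named after a neighbouring or partner gene.

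The data are MeRIP-seq, in which fragmented poly(A) RNA is captured with an antibody against m6A (IP) and compared with the same RNA before capture (input). The spinal cords came from C57BL/6J mice 6 to 8 weeks old. The CCI group had chronic constriction injury, that is, loose silk ligatures around the sciatic nerve, and the sham group had the same surgery without ligatures; both were examined on day 7. Each group had 1 IP and 1 input library, and the number of mice behind a library is not given in the sources used here, so no difference between CCI and sham has a replicate check and no p-value was computed. The comparison of CCI with sham asks where m6A along transcripts differs after a peripheral nerve injury. Read counts are not part of the peak lists, which leaves sequencing depth unknown and a fold enrichment without an interval.

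m6A is placed on mRNA in the nucleus, mostly in the last exon and the 3′-UTR, and the proteins that read it act on splicing, stability and translation. The capture antibody also binds a related mark at the cap of many mRNAs, so a peak at the very start of a transcript cannot be assigned to m6A alone. In the spinal cord, solute carriers load glutamate, GABA and glycine into vesicles, clear these transmitters from synapses, set the chloride gradient on which inhibition depends, and feed neurons and glia with glucose, lactate and amino acids.

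The marker genes fixed for the check of the tissue had peaks for all the main cell types of the cord, although a listed peak gives no expression level. All 3 markers each of neurons, motor neurons, astrocytes, oligodendrocytes, microglia and endothelium had a peak in both lists, among them *Snap25*, *Chat*, *Gfap*, *Mbp*, *Cx3cr1* and *Cldn5*. Of the 3 Hox genes of the lower cord, *Hoxc8* and *Hoxd10* had peaks and *Hoxc9* had none. Of the markers of other tissues, 2 of 3 of blood (*Hbb-bs*, *Hba-a1*) had peaks in both lists, and the 3 of skeletal muscle had none. Markers of the dorsal root ganglion differed between the lists: *Scn10a* and *Mrgprd* had a peak in sham, with a highest fold enrichment of 8.13 and 19.8, and none in CCI, while *Trpv1* had none in either. The part of such carried-over tissue in the results was not tested.

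The CCI list held 496 peaks in 213 Slc genes and the sham list 528 peaks in 223 Slc genes, or 1.48% and 1.53% of the 33556 and 34406 peaks listed. Both lists held 206 of the 230 genes. A further 7 genes were listed in CCI only (3.04%, against 4.77% of all genes with a peak) and 17 in sham only (7.39%, against 8.46%). The shares of genes listed on a single side were thus a little lower for the Slc genes than for all genes, with sham the larger side in both. Of the 371 protein-coding Slc genes covered by the rule in the RefSeq annotation, 228 (61.5%) had a peak in either list, compared with 53.4% of the 21900 protein-coding genes of the mouse.

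Coverage of the families was uneven. The largest family, the SLC25 carriers of the inner mitochondrial membrane, had 34 of its 47 coding genes listed, and the SLC35 nucleotide sugar transporters had 24 of 27. Nearly every monocarboxylate transporter was listed (13 of 14 in family 16), as were all 4 sodium-calcium exchangers of family 8 and all 4 equilibrative nucleoside transporters of family 29. By contrast, the organic ion transporters of family 22, many of which are known from kidney and liver, had 6 of 25 genes listed, and the sodium-coupled sugar transporters of family 5 had 3 of 13. The concentrative nucleoside transporters of family 28 and the type II phosphate transporters of family 34 had no peak listed. *Slc18a2* and *Slc18a3*, which fill vesicles with monoamines and acetylcholine, and *Slc7a11*, the cystine-glutamate exchanger, had no peak listed either.

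Most genes carried few peaks. The median was 2 peaks per Slc gene in each list, as for all genes, and 73 of the 213 genes in CCI and 72 of the 223 in sham had a single peak. *Slc43a2*, a facilitative transporter of large neutral amino acids, carried the most, with 11 in CCI and 9 in sham. It was followed by *Slc32a1* and *Slc45a4* with 7 in each list and by *Slc6a9* and *Slc8a2* with 6 in CCI and 7 in sham. Peaks of a gene are not always separate sites: 27 Slc peaks in CCI and 28 in sham, from 9 genes in each list, shared exonic bases with another peak of the same gene and list.

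The fold enrichment, the ratio of IP to input that the authors gave for each peak, was close to that of the whole list. Its median over the Slc peaks was 5.31 in CCI (middle 50% of peaks from 2.87 to 10.4, range 1.16 to 872) and 5.32 in sham (2.84 to 9.89, range 1.20 to 366), against 5.73 and 5.70 over all peaks. The same fold enrichment often recurs from peak to peak. A value of 10.4 stood at 268 CCI peaks, 9 of them in Slc genes, and a value of 5.81 at 269 sham peaks, again 9 of them in Slc genes, so the ratio moves in steps and equal values at different genes carry no meaning of their own.

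Counted by peak, Slc peaks lay in 3′-UTRs more often than peaks in general. In CCI, 296 of the 496 Slc peaks (59.7%, 95% Wilson interval 55.3 to 63.9%) were annotated in a 3′-UTR, against 49.8% of all CCI peaks, and in sham 292 of 528 (55.3%, 51.0 to 59.5%), against 48.9%. Coding or other exon peaks were fewer, with 22.0% (18.6 to 25.8%) in CCI and 24.1% (20.6 to 27.9%) in sham against 35.5% and 35.1% of all peaks. The 5′-UTR held 18.3% (15.2 to 22.0%) of the Slc peaks in CCI and 20.6% (17.4 to 24.3%) in sham, against 14.7% and 16.1%. These intervals cover counting error only, and when several peaks of a gene within a region counted as 1, the 3′-UTR share was 53.8% (48.4 to 59.0%) in CCI, against 47.5% of all genes counted the same way, and 50.6% (45.4 to 55.7%) in sham, against 46.6%. By that count the 3′-UTR excess in CCI was smaller and the interval in sham held the background. The 5′-UTR share was then 21.9% (17.8 to 26.7%) in CCI, against 19.9%, and 23.7% (19.6 to 28.4%) in sham, against 21.2%. Both of these intervals held the background. As over all peaks, the 5′-UTR peaks were the strongest class, with a median fold enrichment of 8.23 in CCI and 6.28 in sham (8.51 and 8.21 over all 5′-UTR peaks), compared with 4.93 and 5.21 in the 3′-UTR (5.92 and 5.81 over all).

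To compare the groups at the same site, peaks of the lists were paired where each was the other's best partner by shared exonic bases. The 425 pairs of Slc peaks, from 204 genes, had a median log2 ratio of fold enrichment, CCI over sham, of 0.011 (middle 50% from -0.31 to 0.40), beside 0.027 over all 27380 pairs, so there was no common shift of the Slc peaks in either direction. In CCI, 44 Slc pairs (10.4%, 95% Wilson interval 7.80 to 13.6%) were at least 2-fold higher, a log2 ratio of 1 or more, where 8.59% of all pairs were. At least 2-fold lower in CCI were 27 Slc pairs (6.35%, 4.40 to 9.09%), where 7.25% of all pairs were. Both shares are near the background. With the median log2 ratio of each gene in place of its pairs, 21 of the 204 genes were higher in CCI (10.3%, 6.83 to 15.2%), above the 6.23% of all genes with a pair, and 9 were lower (4.41%, 2.34 to 8.17%), near 5.43%. The statement for higher pairs therefore depends on the unit, and no replicate library stands behind either count. The call divides a continuum, since 33 Slc pairs lay within an absolute log2 ratio of 0.9 to 1.1, and *Slc45a4* (1.0) and *Slc6a11* at a weak 3′-UTR peak (0.99) stood on either side of it. In bulk spinal cord, a changed mix of cells that differ in the methylation of a transcript and changed methylation within cells cannot be told apart.

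Peak length differed between the pairs called higher and those called lower. Among the 44 pairs higher in CCI, the CCI peak was the longer in 28 and the shorter in 6, with a median exonic length of 314.5 bp in CCI and 225.5 bp in sham. Among the 27 pairs lower in CCI, the CCI peak was the shorter in 23 and the longer in 4, with medians of 180 and 270 bp. Among the 354 Slc pairs called in neither direction, the CCI peak was the longer in 102 and the shorter in 153, with medians of 240.5 and 267.5 bp. A border can also split a site: in 8 of the 71 called pairs, against 41 of all 425, a further peak of the gene shared bases with a partner, and the ratio leaves it out. The part of the borders in the ratios was not tested beyond pairs with nearly the same borders, which were examined after the values were seen. Where the shared bases made up at least 80% of the joined length, 25 of 269 Slc pairs (9.29%) were higher in CCI, against 7.03% of all such pairs, and 8 (2.97%) were lower, against 5.13%. With identical borders, 8 of 90 Slc pairs were higher (8.89%, against 7.31% of all such pairs) and 0 lower (95% Wilson interval up to 4.09%, against 4.16%). The higher share was near its background and the lower share just below it, by an interval that covers counting error only.

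**Figure D1:**
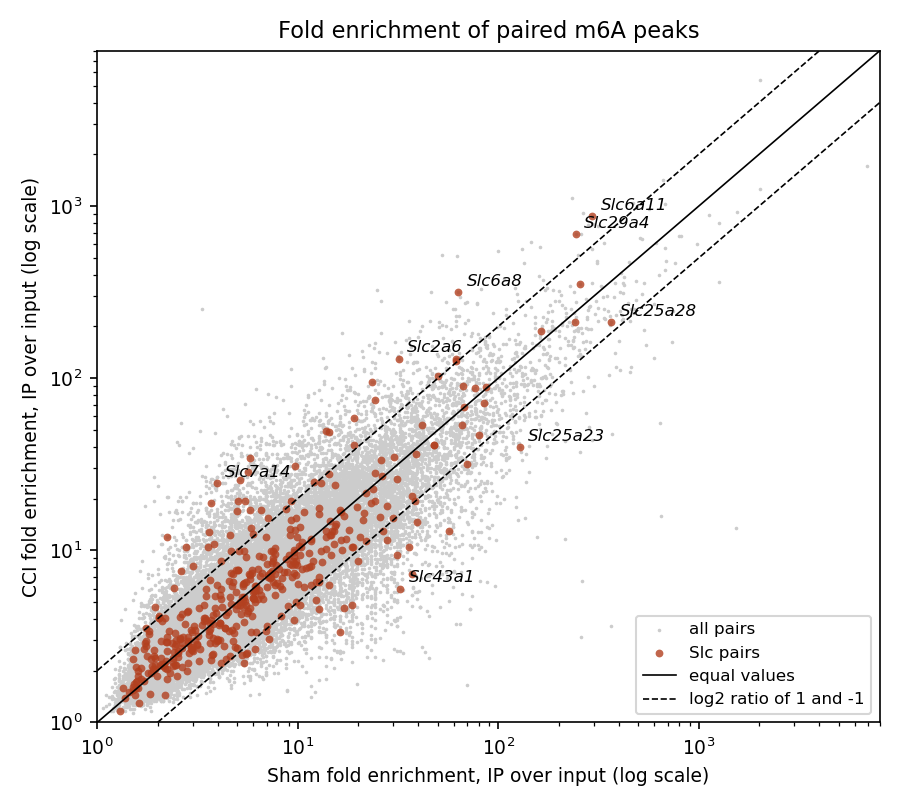
Fold enrichment of paired peaks in sham (horizontal axis) and CCI (vertical axis), both as the ratio of IP to input on a log scale. Grey points are all 27380 pairs and red points the 425 Slc pairs; the solid line marks equal values and the dashed lines a log2 ratio of 1 and -1, beyond which 44 Slc pairs lie above and 27 below. Each axis is 1 IP over 1 input library.

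No role stood clear of the others in its middle. The Slc families were put together by what they carry into 7 roles, and the median log2 ratio of the pairs ran from -0.077 for the carriers of metal ions and haem to 0.11 for the carriers of nucleosides and nucleotide sugars. Genes entered a role by family number, so its counts of genes, peaks and pairs also take in the names that are not transporters. Called pairs were few in each role, from 4 to 9 higher and from 2 to 8 lower in CCI, where 8.59% and 7.25% of all pairs were. Among the carriers of vitamins, choline, bile acids and organic ions, 7 of 38 pairs were higher and 5 lower. A difference of a role from all pairs was not tested. Of the 120 Slc genes with 2 or more pairs, 44 (36.7%) had all pairs on the same side of equality, near the 32.6% of all genes with 2 or more pairs. Counted by gene, 39 of the 204 genes (19.1%, 14.3 to 25.1%) had only pairs higher in CCI among those called, against 15.9% of all genes with a pair, 23 (11.3%, 7.63 to 16.3%) only lower ones, against 13.2%, and 2 (*Slc22a15* and *Slc35e4*, the latter picked for this count) had both.

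**Figure D2:**
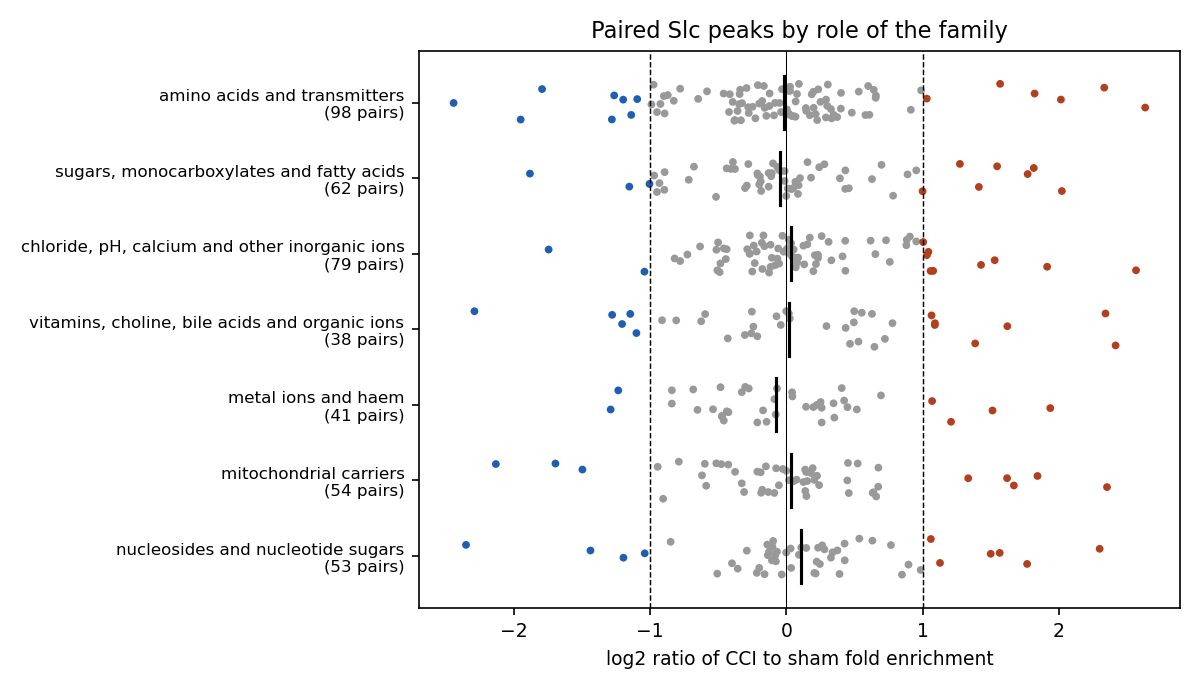
Log2 ratio of fold enrichment, CCI over sham (horizontal axis), for each of the 425 pairs of Slc peaks, in rows by the role of the family. Each point is a pair, placed at an arbitrary height within its row; red points are 1 or more, blue points -1 or less, dashed lines mark these limits and black bars the median of a row, all of which lie between -0.077 and 0.11.

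Among the carriers of amino acids and transmitters, 46 genes had a peak, 43 in each list, with 115 peaks in CCI and 124 in sham. The vesicular transporters, which fill synaptic vesicles, differed in how much of the transcript was marked. *Slc32a1*, which loads GABA and glycine and so marks inhibitory terminals, had 7 peaks in each list over a transcript of chromosome 2 from 158610767 to 158615748 (GRCm38). Its strongest CCI peak lay at the end of the 3′-UTR, with a fold enrichment of 33.7 in CCI and 26.0 in sham (log2 ratio 0.37). At the start of its 5′-UTR, a peak from 158610767 to 158610886 in CCI and to 158610916 in sham had 10.4 in CCI and 36.0 in sham, a log2 ratio of -1.79. Both ends of this transcript therefore stood on opposite sides of equality. The 2 exon pairs between them had 2.21 and 2.09 in CCI and 2.83 and 2.65 in sham.

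**Figure D3:**
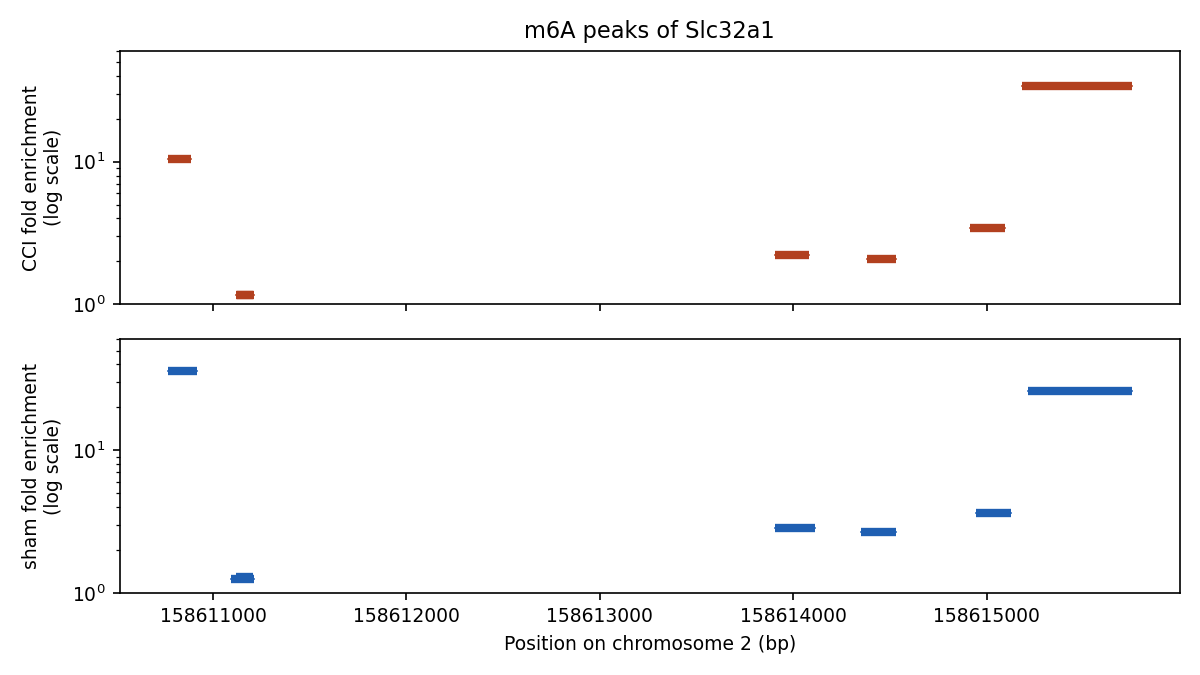
Peaks of *Slc32a1* along chromosome 2 in bp (GRCm38) in CCI (upper panel) and sham (lower panel), each bar drawn over the bases of a peak at the height of its fold enrichment, on a log scale. The peak at the left end, in the 5′-UTR, stands at 10.4 in CCI and 36.0 in sham, and the peak at the right end, in the 3′-UTR, at 33.7 and 26.0.

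*Slc17a6*, the vesicular glutamate transporter of most excitatory dorsal horn neurons, had weaker peaks that differed little. Its 5′-UTR peak had a fold enrichment of 2.90 in CCI and 3.88 in sham (log2 ratio -0.42), and its stronger 3′-UTR peak 5.04 and 6.10 (-0.28). The other vesicular glutamate transporters were each listed on a single side. *Slc17a7*, carried by many primary afferents and corticospinal neurons, had a 3′-UTR peak of 121 bp with a fold enrichment of 8.72 in sham. *Slc17a8*, found in smaller sets of neurons, had a peak of 121 bp in its last exon, exon 12 of 12, with 10.4 in CCI. The authors' log10 false discovery rate was -2.65 for the *Slc17a7* peak and -2.02 for the *Slc17a8* peak, so both calls rest on weakly scored peaks.

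The transporters that clear transmitters at the plasma membrane held the strongest Slc peak of the CCI list. *Slc6a11* encodes GAT-3, which takes up GABA mainly into astrocytes, and its 5′-UTR peak on chromosome 6 from 114131241 to 114131480 covered identical bases in CCI and sham, where the fold enrichment was 872 and 294 (log2 ratio 1.57). Its 3′-UTR peaks were weak, at 1.58 and 4.05 in CCI and 1.35 and 2.04 in sham. *Slc6a9*, the glial glycine transporter GlyT1, had 24.5 in CCI and 13.0 in sham at a peak of equal length annotated as 5′-UTR (0.91). Its main 3′-UTR peak had 6.17 and 6.15. The former starts at 117868997, past the end of the latter in CCI at 117868440, whereas another 5′-UTR peak of the gene starts at 117835161 in sham. The 2 annotations therefore do not give the start and end of a transcript.

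*Slc6a12*, which carries betaine and GABA, was listed in CCI only, with a weakly scored 3′-UTR peak at 13.0 (log10 false discovery rate -2.8). The value of 13.0 stood at 194 CCI peaks. The creatine transporter gene *Slc6a8* on the X chromosome had a 5′-UTR peak of 540 bp with identical borders and a fold enrichment of 318 in CCI and 63.1 in sham (log2 ratio 2.33). At the end of its 3′-UTR the values were nearly equal, with 88.6 in CCI and 86.9 in sham, so the difference was limited to the start of the transcript. *Slc6a17*, a vesicular transporter of neutral amino acids, had a broad 3′-UTR peak with 13.8 in CCI and 15.4 in sham. Its lowest pair, annotated in an exon in CCI and in the 5′-UTR in sham, had 2.76 and 4.89 (-0.83).

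The glutamate and neutral amino acid carriers of family 1 that the rule keeps had few strong peaks. *Slc1a6*, a glutamate transporter best known from Purkinje cells, had a 3′-UTR peak with 211 in CCI and 242 in sham within the same borders (-0.20), the fifth highest fold enrichment of the Slc peaks in sham. *Slc1a1*, the neuronal glutamate transporter EAAC1, had a 3′-UTR peak of the same borders with 7.01 in CCI and 12.8 in sham (-0.87). *Slc1a4*, which exchanges alanine, serine and cysteine, had 4 paired 3′-UTR peaks. The one nearest the lower coordinate had 5.17 in CCI and 12.4 in sham (-1.26), whereas the other 3 had log2 ratios from -0.049 to 0.028.

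Amino acid carriers outside the synapse included the largest differences of the role in each direction. *Slc7a5* encodes LAT1, the light chain of a large neutral amino acid exchanger, and its 5′-UTR peak on chromosome 8 from 121907485 to 121907694 had 95.4 in CCI and 23.6 in sham with identical borders (log2 ratio 2.02). Its 3′-UTR peak had 7.20 and 7.10. *Slc3a2*, which encodes the heavy chain that partners it, had 7.77 in CCI and 6.35 in sham at the 5′-UTR and 3.78 and 4.12 at the 3′-UTR, so the subunits did not share the difference. *Slc7a14*, a lysosomal member of the cationic amino acid family, had the largest log2 ratio of all 425 pairs, 2.63, at a spliced 5′-UTR peak with 24.5 in CCI and 3.95 in sham. That ratio rests on a weakly scored sham peak, with a log10 false discovery rate of -2.22.

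At the other end, *Slc43a1*, a facilitative transporter of branched-chain amino acids, had the smallest log2 ratio of the 425 pairs, -2.44. Its single peak, in the 3′-UTR on chromosome 2, had 5.99 in CCI over 151 bp and 32.5 in sham over 241 bp. Its relative *Slc43a2* had no called pair among 9, with log2 ratios from -0.92 to 0.53. Both ends of that range came from 5′-UTR peaks that share bases, so the 9 pairs are not separate sites. The lower pair had 4.74 in CCI and 8.99 in sham, and the higher 4.64 and 3.21. The third member, *Slc43a3*, named after its values were seen, had a lower single pair with 2.48 in CCI over 121 bp and 5.29 in sham over 211 bp (-1.09). *Slc15a4*, a lysosomal histidine and peptide transporter, had a 3′-UTR peak with 4.82 in CCI and 18.6 in sham (-1.95) and a further one with 8.66 and 11.9 (-0.46). The glutamine carriers *Slc38a1* and *Slc38a2*, which feed transmitter synthesis, had 3′-UTR pairs from -0.18 to 0.48, and the astrocytic *Slc38a3* had a short exon peak with 4.17 in CCI and 2.04 in sham (1.03).

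*Slc36a1*, a lysosomal proton-coupled carrier of small amino acids, had 4 pairs from 0.02 to 0.61. Under the name *Slc36a1os*, a transcript named as antisense to it, an exon pair had 11.5 in CCI over 179 bp and 27.9 in sham over 299 bp (-1.28).

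Carriers of chloride, bicarbonate, protons, calcium and other inorganic ions had peaks in 39 genes, with 97 peaks in CCI and 106 in sham. Among the cation-chloride cotransporters, *Slc12a2* encodes NKCC1, which brings chloride into cells. Its 5′-UTR peak of 778 bp had identical borders, with 126 in CCI and 61.6 in sham (log2 ratio 1.03), and its 3′-UTR peak had 3.10 and 3.78 (-0.29). The chloride extruder gene *Slc12a7* (KCC4) had no called pair, with 8.37 in CCI and 9.73 in sham at its stronger pair. All but 1 of the 12 pairs in this family stayed below a 2-fold difference.

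*Slc4a4*, the sodium-bicarbonate cotransporter of astrocytes, had a strong 5′-UTR peak with 87.8 in CCI and 76.5 in sham (0.20). No pair of a bicarbonate transporter of family 4 was called. *Slc4a5*, a bicarbonate cotransporter of the choroid plexus, was listed in sham only, with a spliced exon peak at 18.6 (log10 false discovery rate -3.6).

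The sodium-calcium exchangers, which remove calcium from neurons after firing, had 4 of their 15 pairs higher in CCI and 1 lower, beside 8.59% and 7.25% of all pairs. The difference of these few pairs from all pairs was not tested. *Slc8a2* contributed a pair at each end of its transcript. At the 5′-UTR it had 130 in CCI and 61.6 in sham (log2 ratio 1.08), and at a peak of the 3′-UTR 10.4 over 628 bp in CCI and 2.76 over 329 bp in sham (1.91). The same CCI peak also covered a second sham peak of 210 bp at 22.1, so this stretch as a whole was not plainly higher in CCI. *Slc8a1* had an exon peak with 7.56 in CCI and 2.62 in sham (1.53), and another exon peak with 2.40 and 2.54 (-0.08). The strongest CCI peak of *Slc8a1*, also in an exon, had 26.1, and its ratio to sham is not given here. *Slc8a3* was the exception within the family: a 5′-UTR peak of 91 bp in CCI and 270 bp in sham had 3.39 and 6.97 (-1.04), while its strongest 3′-UTR peak had 35 in CCI and 30.1 in sham (0.22).

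The potassium-dependent exchanger *Slc24a2* of neurons had 4 pairs from -0.44 to 0.08. *Slc24a1*, best known from rod photoreceptors, was listed in CCI only with a weakly scored exon peak of 91 bp at 10.4 (log10 false discovery rate -2.02). *Slc26a11*, a sulfate and chloride transporter, had the second largest log2 ratio of the Slc pairs, 2.57, at an exon peak with 34.4 over 210 bp in CCI and 5.81 over 120 bp in sham. *Slc20a2*, a phosphate importer, was among the smallest, with 9.38 over 60 bp in CCI and 31.4 over 149 bp in sham (-1.74). The CCI peak was weakly scored, with a log10 false discovery rate of -1.99. The other exon pairs of *Slc20a2* had log2 ratios of 0.88 and -0.51 and its 5′-UTR pairs 0.07 and 0.02. The magnesium transporters *Slc41a1* and *Slc41a2* had pairs from -0.27 to 0.91.

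The carriers of sugars, monocarboxylates and fatty acids had peaks in 39 genes, with 68 peaks in CCI and 83 in sham. *Slc2a1* and *Slc2a3* encode the glucose transporters of blood vessels and glia and of neurons. The main 3′-UTR peak of *Slc2a1* had 14.9 in CCI and 14.5 in sham (log2 ratio 0.04), with nearly equal values, and *Slc2a3* had 3.56 and 4.35 at a 3′-UTR peak of identical borders (-0.29) and 12 and 6.97 at a short, weakly scored 5′-UTR peak (0.78). *Slc2a6*, a lysosomal member of the family, had 130 in CCI and 32.0 in sham at its single 3′-UTR peak on chromosome 2 (2.02), over 477 and 506 bp. Here the longer peak was that of sham, unlike most pairs higher in CCI. *Slc2a10* was listed in sham only, with 2 exon peaks at 13.9 and 11.0 (log10 false discovery rate -2.42 and -3.77).

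The monocarboxylate transporters carry lactate and ketone bodies between glia and neurons. *Slc16a1* (MCT1), of oligodendrocytes and vessels, had 11.3 in CCI and 21.8 in sham at its 5′-UTR (-0.95) and near-equal values at its 3′-UTR, 5.76 and 5.97. *Slc16a7* (MCT2), the neuronal form, had a single peak at the border of the last exon and the 3′-UTR, with 12.2 in CCI and 4.58 in sham (1.41). *Slc16a9*, a carnitine and urate transporter, had 4.62 over 151 bp in CCI and 17.0 over 241 bp in sham at its 3′-UTR (-1.88), and its exon peak was also lower, with 4.14 and 8.30 (-1.0).

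*Slc27a4*, a fatty acid transport protein, had one of the strongest Slc peaks in both lists, at its 5′-UTR, with 352 in CCI and 256 in sham (0.46). The dicarboxylate transporter *Slc13a3* had a strong 3′-UTR peak of identical borders with 90.2 in CCI and 66.8 in sham (0.43). *Slc45a4*, a proton-coupled sugar transporter, had 7 pairs from -0.89 to 1.0, with the pair that reached the limit among its weakest (3.52 in CCI and 1.76 in sham). *Slc37a2*, a sugar-phosphate exchanger of macrophages, was listed in sham only, at 17.4 (log10 false discovery rate -3.3).

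*Slc5a7*, the choline transporter of cholinergic terminals, belongs to the family of sodium-coupled sugar transporters by number. Its 5′-UTR peak had 6.20 in CCI and 8.13 in sham (-0.39), and a broad 3′-UTR peak had 2.5 over 330 bp in CCI and 5.55 over 599 bp in sham (-1.15). A further CCI peak of 240 bp at 4.68 lay over the rest of that sham peak, where the values were less than 2-fold apart. The sugar exporter *Slc50a1* had a 3′-UTR peak with 6.52 in CCI and 7.55 in sham.

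The mitochondrial carriers had peaks in 34 genes, 32 in CCI and 34 in sham, with the lowest medians of fold enrichment of the roles (4.12 in CCI and 4.07 in sham). *Slc25a28* encodes mitoferrin-2, which brings iron into mitochondria, and its 5′-UTR peak had the highest fold enrichment of any Slc peak in sham, 366, against 212 in CCI within the same borders (log2 ratio -0.79). *Slc25a4*, which exchanges ADP and ATP, had a short 3′-UTR peak with 2.51 in CCI and 3.77 in sham (-0.59). *Slc25a12*, the aspartate-glutamate carrier of neurons, had 1.80 and 1.65 (0.13).

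Of the 54 pairs of this role, 5 were higher and 3 lower in CCI, near the 8.59% and 7.25% of all pairs. *Slc25a34*, an orphan carrier, had 13.0 over 151 bp in CCI and 56.9 over 211 bp in sham at its 3′-UTR (-2.13). *Slc25a23*, a calcium-dependent carrier of ATP-magnesium and phosphate chosen after its values were seen, had 39.6 in CCI and 128 in sham at a 5′-UTR peak of similar length (240 and 270 bp, -1.69). *Slc25a2*, an ornithine carrier, was listed in sham only, at 19.8 (log10 false discovery rate -3.91).

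Carriers of metal ions and haem had peaks in 24 genes, with 50 peaks in CCI and 47 in sham. *Slc30a1* encodes ZnT1, which exports zinc from cells, and its 5′-UTR peak on chromosome 1 had 19.3 in CCI and 5.04 in sham (log2 ratio 1.94). The sham peak was weakly scored, with a log10 false discovery rate of -1.64. *Slc30a3*, which loads zinc into glutamatergic vesicles, had a weak 3′-UTR pair with 2.79 and 2.43 (0.20). The zinc importer *Slc39a10* had exon pairs with 2.43 and 5.98 in CCI and 1.78 and 8.35 in sham, which differed in opposite directions (0.45 and -0.48). *Slc30a2* was listed in CCI only, with a weakly scored 3′-UTR peak at 5.47 (log10 false discovery rate -2.73).

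*Slc39a5* was listed in CCI only by name, at 21.3, but its peak shared exonic bases with a sham peak listed under *Ankrd52*, so the difference is one of naming. The iron carriers showed small differences. *Slc11a2*, which encodes the divalent metal importer DMT1, had 7.02 in CCI and 9.42 in sham at its main 3′-UTR peak (-0.42), and *Slc40a1*, which encodes the iron exporter ferroportin, had 6.22 and 4.69 at an exon peak (0.41). The copper carrier *Slc31a2* had pairs of -0.14 and -0.28 and the haem carrier *Slc48a1* of 0.23 and -0.08.

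Carriers of nucleosides and nucleotide sugars had peaks in 29 genes and the highest median log2 ratio of the roles. *Slc29a4*, a monoamine transporter of the plasma membrane within the nucleoside family, had the second highest fold enrichment of the Slc peaks in CCI, at the end of its 3′-UTR, with 690 over 627 bp in CCI and 244 over 537 bp in sham (log2 ratio 1.5). Its neighbouring 3′-UTR peak had 11.2 and 10.5 (0.09). Of the SLC35 proteins, which supply the Golgi with activated sugars and sulfate, *Slc35b3* had a spliced 5′-UTR peak with 25.5 in CCI and 5.18 in sham (2.30), and *Slc35f6* a 3′-UTR peak with 7.30 over 91 bp in CCI and 37.2 over 210 bp in sham (-2.35), beside a weaker 3′-UTR pair with 3.26 and 1.81 (0.85). The family had 5 pairs higher and 4 lower in CCI among 46, near the 8.59% and 7.25% of all pairs. The acetyl-CoA transporter *Slc33a1* had a single pair, with 5.91 and 6.23.

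Among the carriers of vitamins, choline, bile acids and organic ions, 19 genes had a peak, and 7 of their 38 pairs were higher and 5 lower in CCI, beside 8.59% and 7.25% of all pairs. Both riboflavin transporters were among the largest differences. *Slc52a2* had an exon peak with 11.9 over 391 bp in CCI and 2.23 over 91 bp in sham (2.42), and *Slc52a3* an exon peak with 28.7 over 209 bp in CCI and 5.66 over 180 bp in sham (2.34). Their 3′-UTR peaks did not reach the limit, with log2 ratios of -0.04 and 0.55. *Slc44a1*, a choline transporter of glia and neurons, had 19.3 in CCI and 9.22 in sham at its 3′-UTR (1.07) and 18.8 and 23.2 at its 5′-UTR (-0.30).

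*Slc46a3*, a lysosomal transporter, had the third smallest log2 ratio, -2.29, at a 3′-UTR peak with 3.34 in CCI and 16.3 in sham over similar lengths of 420 and 480 bp. *Slc22a15*, an organic ion transporter of brain, was called in both directions, with 75.1 in CCI and 24.4 in sham at its 5′-UTR (1.62) and 6.25 and 14.4 at a 3′-UTR peak (-1.20). *Slc22a23* had a 5′-UTR peak of identical borders and near-equal values, 68.3 and 67.4 (0.02), and a 3′-UTR pair of 121 bp in each list with 9.90 in CCI and 4.65 in sham (1.09). The folate transporter *Slc19a1* and the thiamine transporter *Slc19a3* each had a lower pair (-1.28 and -1.14), in both cases over a much shorter CCI peak. For *Slc19a1* the sham peak at 9.57 was split in CCI into peaks at 3.95, the partner, and 5.63, and *Slc19a3* also had an exon pair with 5.99 in CCI and 3.49 in sham (0.78). *Slc10a4*, found in vesicles of cholinergic neurons, had 17.2 in CCI and 6.58 in sham at a 3′-UTR peak (1.39), and *Slc10a7* had 4.81 and 10.3 (-1.10). The urea transporter *Slc14a1* had 4.43 and 2.83 (0.65), and the ascorbate transporter *Slc23a2* 1.45 and 2.19 (-0.59).

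By their medians, Slc peaks with no partner were weaker and shorter than those with a partner. Not all were: a 5′-UTR peak of *Slc6a17* in sham had 301 bp, 6.97 and a log10 false discovery rate of -14.9. In CCI, 50 of the 496 Slc peaks (10.1%, 95% Wilson interval 7.73 to 13.0%) shared no exonic base with a sham peak, where 12.3% of all CCI peaks did, and in sham 90 of 528 (17.0%, 14.1 to 20.5%) had none in CCI, where 16.1% of all sham peaks had none. Their median fold enrichment was 2.72 in CCI and 3.52 in sham, against 5.76 and 5.54 for the Slc peaks with a partner, and their median exonic length 121 and 120 bp against 240 and 241 bp. Most lay in genes listed in both groups, 44 of the 50 in CCI and 64 of the 90 in sham. The strongest were a 3′-UTR peak of *Slc12a7* at 15.6 in CCI and a 5′-UTR peak at 26.7 in sham in *Slc2a13*, an inositol transporter gene named after its values were seen. The *Slc12a7* peak ended at 73816544, and a sham peak of the same 3′-UTR at 8.72, also with no partner, started close by at 73816574. Both lists thus held a peak in that stretch.

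A table of peaks that the authors called different between CCI and sham listed 70 peaks in 52 Slc genes, 1.45% of its 4812 entries, near the 1.48% and 1.53% of the full lists. By region, 41 (58.6%) belonged to 3′-UTRs, 15 (21.4%) to exons and 14 (20%) to 5′-UTRs, near the 55.1%, 29.6% and 15.3% of all entries, and the median fold enrichment was 5.94, against 5.80 over all entries.

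Because several of the strongest Slc peaks start with the transcript, the sense strand of the first 50 transcribed bases, as given by RefSeq for GRCm38.p6, was searched for GGAC, the core of the sequence in which m6A is most often placed. The search was chosen after the peaks were seen. Of the starts whose first 50 bases shared at least 1 base with a peak of their own gene, 7 of 33 Slc starts in CCI (21.2%) and 7 of 42 in sham (16.7%) held GGAC, compared with 22.7% and 22.5% of all such starts and 18.9% of all 32851 starts. The Slc starts were thus near the background. The motif with a following T, GGACT, was found at 1 Slc start in CCI (3.03%) and 0 in sham, compared with 5.66% and 5.78% of all such starts. A match is a description of the sequence and does not place the mark at that base. The windows below, 5′ to 3′ on the sense strand, are those of 5′-UTR peaks with GGAC in capitals, shown because their peaks were strong or differed between the lists.

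*Slc25a28*, chr19:43674832-43674855, minus strand, 5′-UTR, under the peak with 212 in CCI and 366 in sham: cgcctgaggcGGACgcaacggggc
*Slc25a23*, chr17:57059837-57059860, minus strand, 5′-UTR, under the peak with 39.6 in CCI and 128 in sham: gcgcgggcggGGACgactagcatt
*Slc24a3*, a potassium-dependent sodium-calcium exchanger chosen after its values were seen, chr2:145167778-145167801, plus strand, 5′-UTR, under the peak with 71.9 in CCI and 84.8 in sham: agcaggagagGGACcccgagcgca
*Slc30a1*, chr1:191906816-191906830, plus strand, 5′-UTR, under the peak with 19.3 in CCI: cagtcgccgcGGACg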

How the data were processed

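The IP and input libraries of each group were processed by the authors, and the analysis started from their peak lists for CCI and sham and their table of differential peaks. Per the methods of the study, reads were trimmed with Cutadapt, mapped with bowtie, called with MACS2 and annotated with ChIPseeker. The submitters' processing notes name fastp, HISAT2, HOMER and ChIPseeker and the build GRCm38, without versions, while the columns are named as exomePeak names them, so the caller is not settled. The fold enrichment in the deposited lists is the authors' ratio of IP to input. The log10 false discovery rate of each peak in the deposited lists was handled as a score. The deposited table of differential peaks also holds the authors' own comparison of CCI with sham (a log2 fold change, a log10 p-value and a log10 false discovery rate), which was not used here.

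Members were found by gene name, and all 230 names were symbols in the RefSeq annotation of GRCm38.p6. Peaks were paired when they shared 1 or more exonic bp and neither had a better partner, judged by the share of the joined length. Regions are the authors' annotation. The members, the roles and the rule for named genes were chosen with earlier results of these data known. Named were a fixed set of 40 genes known in the cord, the 5 with the highest peak in each list, the 5 with most peaks, the 8 largest and 8 smallest log2 ratios, the 5 strongest listed in a single list per group, and 2 examples for other families. Outside this rule, and picked with their values known, are *Slc25a23*, *Slc43a3*, *Slc2a13*, *Slc24a3* and *Slc35e4*, besides the names that are not transporters. Results for some of the genes chosen by the rule, and for a marker set, are not reported here. The search of transcript starts for GGAC, 80% of the joined length, the count of pairs with a further peak, the shares of all genes counted by gene and the names that are not transporters were chosen after the data were seen. The sources do not say if peak calling was strand-aware. Alternatives covered the false discovery rate and fold enrichment of the peaks, the overlap, the call, centring, the unit of counting and the members. A search for the motif over whole peaks was not run, since no genome was used here. With 1 library per group there was no test. The pairing and the intervals were tested on simulated data. The software was matplotlib 3.10.9, scipy 1.17.1, pandas 2.3.3 and numpy 2.4.6 under Python 3.11.15.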

Additional observations from a re-analysis of the deposited data

How the results depend on the processing

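No paired analysis was possible because there is a single IP and a single input library in each group, and no result comes from a test. Of 100 summary values under alternatives, 83 stayed within 1.5 times the count, within the counting error of the share or within 0.1 on the log2 scale, and 17 moved further. A minimum fold enrichment of 2 raised the median fold enrichment of the Slc peaks to 6.04 in CCI and 5.81 in sham, as dropping weak peaks must, and taking the highest peak per gene raised it to 9.71 and 8.35. When several peaks of a gene within a region counted as 1, the 3′-UTR share was 53.8% in CCI and 50.6% in sham (47.5% and 46.6% of all genes), and the sham interval then held the background. When partners had to share 50% of each peak, 19.2% of the Slc peaks in CCI and 24.2% in sham had no partner. An absolute log2 ratio of at least 0.5 gave 86 Slc pairs higher and 70 lower in CCI (22.1% and 19.4% of all pairs). With the gene as the unit, 204 genes had 21 higher and 9 lower (10.3% and 4.41%, against 6.23% and 5.43% of all genes with a pair), so the higher share was no longer near the background. A fold enrichment of at least 4 in both lists left 244 pairs. Chosen after seeing the data, a joined share of at least 80% left 269 pairs, with 25 higher and 8 lower (7.03% and 5.13% of all such pairs). The stricter settings admit fewer pairs by construction; beyond that, the cause of these moves was not tested. Of the 160 values possible for the 16 pairs with the largest and smallest log2 ratios, 142 could be formed; apart from centring, a pair that is kept has the same ratio by construction, so these settings do not check a single ratio. Leaving out the names of genes that are not transporters, also chosen after seeing the data, gave 207 genes in CCI and 217 in sham, 415 pairs, 43 higher and 26 lower. The search for GGAC or GGACT over whole peaks was not run. The depth of the libraries is unknown, so the error of a single ratio is too.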
